A study of Mus musculus with 8 samples.

Results

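Integrins are the cell-surface receptors through which cells hold on to the extracellular matrix, and 10 of their subunit genes were followed here through the first days of reprogramming of mouse embryonic fibroblasts (MEFs) towards pluripotency. The subunits were chosen by name, with earlier results of these data known. They were the collagen-, laminin- and fibronectin-binding members *Itga1*, *Itga3*, *Itga5*, *Itga6*, *Itga8*, *Itga11*, *Itgav*, *Itgb1*, *Itgb4* and *Itgb5*. All 10 were among the 18990 genes of the deposited table and among the 13866 genes tested. The cells were primary wild-type MEFs on a C57/BL6 background at passage 2. They carried 2 lentiviruses, one with the doxycycline-inducible tet-STEMCCA cassette, which encodes *Oct4*, *Sox2*, *Klf4* and *c-Myc*, and one with the rtTA activator that the cassette needs, at a multiplicity of infection of 1. Every group was transfected with a pool of siRNAs at 40 nM, against *Ncor1* (*siNcor1*) or *Oct4* (*siOct4*), before doxycycline was added at 2 µg/mL, and was collected at day 3 or day 6. All groups received LIF, ascorbic acid at 50 µg/mL, the GSK3 inhibitor Chiron at 3 µM and Alk5i, an inhibitor of the TGF-beta receptor ALK5, at 0.25 µM. The 4 groups held 2 biological replicates each, and no libraries of a non-targeting control were analysed here. Each comparison therefore sets the knockdowns, or the days, against each other.

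The libraries held between 7735742 and 16445192 reads on genes, and 3 reads were worth between 0.174 and 0.380 CPM (reads scaled to the size of the library). *Ncor1*, the target of the first pool, stood at 7.08 and 7.20 log2-cpm in *siNcor1* at day 3 against 7.82 and 7.94 in the *siOct4*-labelled libraries, a difference past the threshold in limma (adjusted p = 0.0139) that was lost without any one of these 4 libraries, and no difference passed at day 6 (adjusted p = 0.815). *Pou5f1*, which encodes OCT4, showed no knockdown against *siNcor1* at either day. It was not lower in the *siOct4*-labelled libraries at day 3 (log2 fold change −0.08 ± 0.16 (SE), adjusted p = 0.941), and was higher there at day 6 (1.78 ± 0.16, adjusted p = 0.000109). The cassette carries its own *Oct4*, and its reads were not separated from those of the cell's gene. The paper states that the *Oct4* knockdown was not highly efficient at day 3 in these samples. It also reports an RT-qPCR time course in which *Oct4* was silenced earlier and then recovered rapidly. The non-coding gene *Gm26917* took 15.5% to 16.6% of the reads at day 3 and 20.3% to 29.1% at day 6. Exons of 4 members overlap those of another gene, *Itgb4* with *B230344G16Rik*, *Itgav* with *Gm13684* and *Itga8* with *E030013I19Rik* on the opposite strand and *Itga1* with *Gm49395* on the same strand, and whether reads were counted by strand is not given in the sources used here.

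An integrin is a pair of one alpha and one beta chain, and the alpha chain largely sets the ligand. The Itga5 and Itgav chains bind matrix proteins that carry the RGD tripeptide, such as fibronectin and vitronectin, the Itga1 and Itga11 chains bind collagens, and the Itga3 and Itga6 chains bind the laminins of basement membranes. Fibroblasts in culture are known for strong fibronectin and collagen receptors on focal adhesions, whereas epithelia rest on laminin through Itga3 and Itga6, and the pair of Itga6 with Itgb4 anchors the keratin network in hemidesmosomes. Reprogramming of fibroblasts passes through a mesenchymal-to-epithelial transition, so the comparison asks whether the subunits of one set gave way to those of the other.

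Most subunits fell in the *siOct4*-labelled libraries, and fewer passed the threshold in *siNcor1*. From day 3 to day 6 in those libraries 8 of the 10 subunits fell and 1, *Itgb4*, rose, where 52.7% of all genes tested passed the threshold, 30.5% lower and 22.2% higher. With library totals that leave out *Gm26917*, 52.5% of those calls over all genes were higher in place of 42.1%, and the members' counts were the same. The median over the members was −1.06 on the log2 scale, beside −0.08 over all genes tested. In *siNcor1* over the same days 3 members fell, *Itga5*, *Itga1* and *Itga11*, where 34.8% of all genes tested were called and 20.9% were lower, with a median of −0.34 over the members and −0.07 over all genes. This second count rests on single libraries. It was 1 without *siNcor1* day 3 replicate 1 or *siNcor1* day 6 replicate 1, and without either day 6 library labelled *siOct4* 6 members fell and *Itgb4* rose.

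Between the knockdowns, few members differed at day 3 and most were lower in the *siOct4*-labelled libraries at day 6. At day 3, 2 of 10 members passed the threshold, *Itga5* higher and *Itgb4* lower in the *siOct4*-labelled libraries, where 1.07% of all genes tested passed it, 0.375% higher and 0.692% lower. No member passed without *siNcor1* day 3 replicate 1, *siNcor1* day 3 replicate 2 or *siOct4* day 3 replicate 2, and 1 did (*Itgb4*) without *siOct4* day 3 replicate 1. At day 6, 6 of 10 members were lower in the *siOct4*-labelled libraries, where 30.7% of all genes tested were called and 18.6% were lower (39.5% of these calls were higher, and 27.5% with plain library totals). The members' median was −0.61 at day 6, beside −0.03 over all genes, and 0.19 at day 3, beside −0.02. Without *siNcor1* day 6 replicate 2 the count at day 6 was 4, with *Itga3* and *Itga8* no longer called (adjusted p = 0.0564 and 0.0918). The change of the knockdown difference from day 3 to day 6 was itself past the threshold for 8 of 10 members, 7 of them downwards, where 20.7% of all genes tested were called, 12.9% downwards and 7.77% upwards. That count was 3 to 5 without *siNcor1* day 3 replicate 2, either day 6 library of *siNcor1* or either day 3 library labelled *siOct4*.

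**Figure D1:**
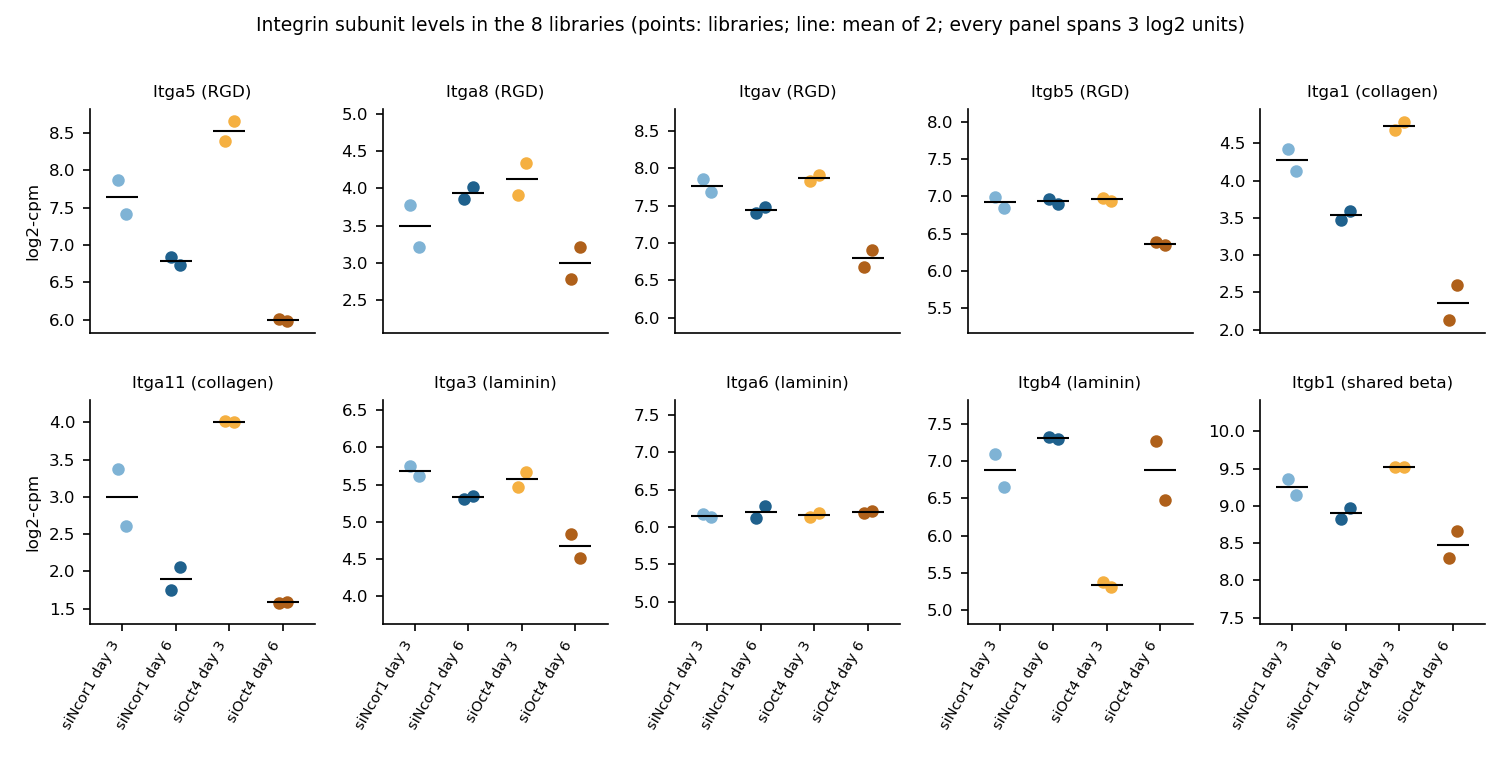
Level of each integrin subunit in log2-cpm (vertical axes, each spanning 3 log2 units) in the 8 libraries, with points for libraries and a line at the mean of each group of 2. *Itga5*, *Itga1* and *Itga11* step down from *siOct4* day 3 to *siOct4* day 6 with the *siNcor1* groups between, *Itga6* stays between 6.12 and 6.28 in all libraries, and *Itgb4* is lowest in *siOct4* day 3.

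*Itga5* encodes the alpha chain of the classical fibronectin receptor and lies at chr15:103344286-103366763 on the minus strand of GRCm38. Its levels were 7.86 and 7.42 log2-cpm in *siNcor1* at day 3 and 6.84 and 6.73 at day 6, and 8.39 and 8.66 in the *siOct4*-labelled libraries at day 3 and 6.01 and 5.98 at day 6. The 4 groups did not overlap, with *siOct4* day 3 the highest, *siNcor1* day 3 next, then *siNcor1* day 6 and *siOct4* day 6 the lowest. In reads, the extremes were 4950 at day 3 and 607 at day 6, both in libraries labelled *siOct4*. At day 3 *Itga5* was 1.85-fold higher in the *siOct4*-labelled libraries than in *siNcor1* (log2 fold change 0.88 ± 0.15 (SE), limma with Benjamini-Hochberg adjustment, adjusted p = 0.0201). At day 6 the sign was the opposite, with a level 1.74-fold lower (−0.80 ± 0.15, adjusted p = 0.00314). Over time *Itga5* fell 5.79-fold in the *siOct4*-labelled libraries (adjusted p = 3.43e-07) and 1.81-fold in *siNcor1* (adjusted p = 0.00156), and these changes differed by −1.68 ± 0.22 on the log2 scale (adjusted p = 0.000791). Only the day 3 difference was lost when a library was left out, with adjusted p between 0.0528 and 0.249 without any one of the 4 day 3 libraries, and it was also lost in a fit whose variance did not follow the mean level, named in what follows a fit without the trend (adjusted p = 0.116).

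*Itgav* (chr2:83724397-83806916, plus strand) encodes the alpha chain that pairs with Itgb5 to bind vitronectin and with other beta chains to bind and activate latent TGF-beta. It stood at 7.85 and 7.68 log2-cpm in *siNcor1* at day 3, 7.40 and 7.49 at day 6, 7.83 and 7.91 in the *siOct4*-labelled libraries at day 3, and 6.68 and 6.91 at day 6. The day 3 groups overlapped, and the day 6 group labelled *siOct4* lay below all others. *Itgav* fell 2.11-fold between the days in the *siOct4*-labelled libraries (adjusted p = 3.19e-05). In *siNcor1* the difference was −0.32 ± 0.13 (SE) on the log2 scale and did not pass the threshold (adjusted p = 0.0644). At day 6 it was 1.57-fold lower in the *siOct4*-labelled libraries (adjusted p = 0.00321), while at day 3 the difference was 0.10 with a 95% interval from −0.17 to 0.38.

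*Itgb5* (chr16:33829665-33949338, plus strand), the beta chain of the vitronectin receptor, had 6 libraries close together and 2 apart. Its levels were 6.99 and 6.85 log2-cpm in *siNcor1* at day 3, 6.97 and 6.90 at day 6, and 6.98 and 6.94 in the *siOct4*-labelled libraries at day 3. The day 6 libraries labelled *siOct4* stood at 6.39 and 6.34, below every other library. The fall in those libraries was 1.51-fold (adjusted p = 0.000941), and their level at day 6 was 1.48-fold lower than in *siNcor1* (adjusted p = 0.00357). In *siNcor1* the difference between the days was 0.02, with a 95% interval from −0.23 to 0.26. *Itga8* (chr2:12106632-12301922, minus strand), an RGD-binding alpha chain known for its part in kidney development and for mesenchymal expression, was a low gene, with 64 to 220 reads. It stood at 3.77 and 3.21 log2-cpm in *siNcor1* at day 3, 3.85 and 4.01 at day 6, 3.91 and 4.33 in the *siOct4*-labelled libraries at day 3, and 2.79 and 3.22 at day 6. The ranges of *siOct4* day 3 and *siNcor1* day 6 overlapped, as did those of *siNcor1* day 3 and *siOct4* day 6. *Itga8* had a fall of 1.12 ± 0.23 (SE) on the log2 scale in the *siOct4*-labelled libraries (adjusted p = 0.00167) and a difference of 0.44 in *siNcor1* that did not pass (adjusted p = 0.164). The test of the difference between these changes gave −1.56 ± 0.33 (adjusted p = 0.00764), and without *siNcor1* day 3 replicate 2 it gave an adjusted p of 0.0514.

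*Itga11* (chr9:62677826-62783982, plus strand), the alpha chain of a receptor for fibrillar collagen that is typical of mesenchymal cells, followed the order of *Itga5*. It stood at 3.38 and 2.61 log2-cpm in *siNcor1* at day 3, 1.75 and 2.06 at day 6, 4.01 and 4.01 in the *siOct4*-labelled libraries at day 3, and 1.58 and 1.60 at day 6. Each group lay apart from the next, although the lowest group rested on 27 and 34 reads. *Itga11* fell 5.36-fold in the *siOct4*-labelled libraries (adjusted p = 1.7e-05) and 2.13-fold in *siNcor1* (adjusted p = 0.00676), and the difference of these changes was −1.33 ± 0.36 (SE) on the log2 scale (adjusted p = 0.0247). Each of these last 2 calls was lost in some fits without 1 library: the fall in *siNcor1* without *siNcor1* day 3 replicate 1 or day 6 replicate 1, and the difference of changes without *siNcor1* day 3 replicate 2, *siNcor1* day 6 replicate 2 or either day 3 library labelled *siOct4*. At day 3 the *siOct4*-labelled libraries were 2.02-fold higher, which missed the threshold (adjusted p = 0.0943) and passed it with voom on the recovered reads (adjusted p = 0.048). At day 6 the knockdowns differed by −0.32 ± 0.26 (SE) on the log2 scale, which did not pass (adjusted p = 0.374), nor did it in any other setting. So neither knockdown step in this order passed in the fit reported.

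*Itga1* (chr13:114953096-115101964, minus strand) encodes a collagen receptor chain that prefers the collagen of basement membranes. Its levels were 4.42 and 4.12 log2-cpm in *siNcor1* at day 3, 3.48 and 3.59 at day 6, 4.67 and 4.79 in the *siOct4*-labelled libraries at day 3, and 2.13 and 2.60 at day 6. The groups again lay apart in the order found for *Itga5* and *Itga11*. *Itga1* fell 5.15-fold in the *siOct4*-labelled libraries (adjusted p = 2.87e-06) and 1.67-fold in *siNcor1* (adjusted p = 0.012). At day 6 it was 2.25-fold lower in the *siOct4*-labelled libraries (log2 fold change −1.17 ± 0.19 (SE), adjusted p = 0.00152), while the day 3 difference of 0.46 did not pass (adjusted p = 0.405). The fall in *siNcor1* was not called without *siNcor1* day 3 replicate 1 or day 6 replicate 1 (adjusted p = 0.106 and 0.0832).

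*Itga5*, *Itga11*, *Itga1* and the beta chain *Itgb1* shared this order of the groups, and their promoters are shown for that reason. The share of all genes tested with this order was not counted, so it may be common, and not every step of it passed the threshold. Each promoter is given as the 250 bases upstream of the RefSeq start on GRCm38.p6, read 5′ to 3′ on the strand of the gene. Capitals mark matches to the motifs searched, which were the letters CCGCCC (the GC box GGGCGG read on the other strand) in *Itga5*, CAGGTG (the E-box CACCTG read on the other strand) in *Itga11*, and the GC box GGGCGG and the TEAD site GGAATG in *Itgb1*. The *Itga1* window holds no match to any of the motifs.
Itga5, chr15:103366792-103367041, minus strand: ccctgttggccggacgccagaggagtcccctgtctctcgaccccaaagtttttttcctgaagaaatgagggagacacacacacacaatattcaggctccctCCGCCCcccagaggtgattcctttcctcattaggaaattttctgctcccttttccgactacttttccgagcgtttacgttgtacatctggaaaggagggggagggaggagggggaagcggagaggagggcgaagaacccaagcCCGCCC
Itga11, chr9:62677605-62677854, plus strand: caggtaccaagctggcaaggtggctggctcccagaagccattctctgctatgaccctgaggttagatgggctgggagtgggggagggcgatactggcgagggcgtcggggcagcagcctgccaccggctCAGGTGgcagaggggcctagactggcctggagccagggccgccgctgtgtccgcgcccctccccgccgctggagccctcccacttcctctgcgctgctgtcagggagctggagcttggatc
Itga1, chr13:115101965-115102214, minus strand: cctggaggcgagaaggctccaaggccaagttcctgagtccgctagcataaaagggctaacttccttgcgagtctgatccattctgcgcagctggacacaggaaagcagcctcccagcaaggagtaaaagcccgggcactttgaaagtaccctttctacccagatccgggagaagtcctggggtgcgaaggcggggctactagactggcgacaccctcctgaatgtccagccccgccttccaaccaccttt
Itgb1, chr8:128685404-128685653, plus strand: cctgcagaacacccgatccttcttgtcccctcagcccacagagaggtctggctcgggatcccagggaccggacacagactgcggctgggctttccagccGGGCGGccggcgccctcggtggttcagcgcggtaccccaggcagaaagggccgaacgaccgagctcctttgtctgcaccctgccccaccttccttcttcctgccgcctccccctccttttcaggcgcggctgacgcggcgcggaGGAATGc
The 6 motifs were the GC box GGGCGG bound by SP and KLF factors, the E-box CACCTG bound by SNAI and ZEB factors, the MYC E-box CACGTG, the AP-1 site TGANTCA, the TEAD site GGAATG and the OCT site ATGCAAA, each searched on both strands, and no 2 matches in the printed windows overlap. Over the 250 upstream bases of 32851 RefSeq promoters, 32.7% held the GC box, 17.2% the SNAI and ZEB E-box, 12.6% the TEAD site, 6.75% the AP-1 site, 6.02% the MYC E-box and 4.12% the OCT site. Promoters were found for 8 of the 10 members, without *Itga6* and *Itgb4*. Among the others, *Itgb5* held 3 GC boxes and 1 CACCTG E-box, 1 of the 2 *Itga3* promoters held 3 GC boxes and 1 such E-box, the other held 1 GC box, and *Itga8* and *Itgav* held no match. No motif was found in all 4 promoters printed, and the GC box was in those of *Itga5* and *Itgb1*. Their G and C content was 55.6% in *Itga5*, 68.4% in *Itga11*, 57.6% in *Itga1* and 68.0% in *Itgb1*, beside a median of 52.4% over all promoters.

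The laminin-binding subunits did not move together. *Itga6* (chr2:71745616-71858416, plus strand), an alpha chain of the basal side of epithelia and a common surface marker of stem cells, was the steadiest member. Its levels were 6.17 and 6.14 log2-cpm in *siNcor1* at day 3, 6.12 and 6.28 at day 6, 6.13 and 6.19 in the *siOct4*-labelled libraries at day 3, and 6.19 and 6.21 at day 6. The highest and the lowest library differed by 0.15 log2 units, and only 8 of the 13866 genes tested (0.0577%) had a smaller span, beside a median span of 0.99. The SD over the 8 libraries was 0.050 log2 units, and counting error alone gives an SD of 0.041 to 0.060 at its 574 to 1213 reads. This narrowness depends on the scaling of the libraries. The span was 0.22 after centring on the medians, 0.23 with plain library totals, 0.30 with totals that leave out *Gm26917* and 0.37 after quantile normalization, where 55, 63, 212 and 621 genes had a smaller span. The log2 difference between the days in the *siOct4*-labelled libraries was 0.04 with a 95% interval from −0.21 to 0.29, and at day 6 the knockdowns differed by 0.00037 with an interval from −0.25 to 0.25.

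*Itga3* (chr11:95044474-95076801, minus strand), which pairs with Itgb1 to bind the laminins of epithelial basement membranes, was lowest in the day 6 libraries labelled *siOct4*. It stood at 5.75 and 5.62 log2-cpm in *siNcor1* at day 3, 5.31 and 5.35 at day 6, 5.47 and 5.67 in the *siOct4*-labelled libraries at day 3, and 4.83 and 4.51 at day 6. The day 3 groups overlapped, and both day 6 groups lay below them. *Itga3* fell 1.87-fold in the *siOct4*-labelled libraries (adjusted p = 0.000289) and was 1.58-fold lower there than in *siNcor1* at day 6 (adjusted p = 0.0059). In *siNcor1* the difference between the days was −0.36 ± 0.14 (SE) on the log2 scale and did not pass (adjusted p = 0.0726).

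*Itgb4* (chr11:115974709-116008412, plus strand), the beta chain of hemidesmosomes, which pairs with Itga6 alone, was the only member to rise past the threshold. Its levels were 7.10 and 6.65 log2-cpm in *siNcor1* at day 3, 7.33 and 7.30 at day 6, 5.38 and 5.31 in the *siOct4*-labelled libraries at day 3, and 7.27 and 6.48 at day 6. The 2 day 3 libraries labelled *siOct4* lay far below the rest, with 611 and 312 reads, and the day 6 libraries of that label differed from each other by more than any other pair of replicates of this gene. At day 3 *Itgb4* was 2.90-fold lower in the *siOct4*-labelled libraries than in *siNcor1* (log2 fold change −1.53 ± 0.22 (SE), adjusted p = 0.00805). It then rose 2.90-fold by day 6 in those libraries (1.53 ± 0.22, adjusted p = 0.000125), whereas in *siNcor1* the difference was 0.44 and did not pass (adjusted p = 0.139). The *siNcor1* rise passed in 2 of 12 other settings, with only the groups compared (adjusted p = 0.016) and after quantile normalization (adjusted p = 0.0482). The test of the difference between the changes in the 2 knockdowns gave 1.10 ± 0.31 (adjusted p = 0.027). It was lost without any of 5 libraries (*siNcor1* day 3 replicate 1 and all day 6 *siNcor1* and day 3 *siOct4* libraries) and without the trend (adjusted p = 0.0943). At day 6 the knockdowns differed by −0.44, short of the threshold (adjusted p = 0.147), and by −0.83 without *siOct4* day 6 replicate 1 (adjusted p = 0.00327). The day 3 difference was lost without any of 3 of the 4 day 3 libraries (adjusted p between 0.0642 and 0.0975) and without the trend (adjusted p = 0.0773), while the rise was called in every fit with a library left out.

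*Itgb1* (chr8:128685654-128733200, plus strand), the beta chain shared by most alpha chains, was the highest member. It stood at 9.36 and 9.15 log2-cpm in *siNcor1* at day 3, 8.83 and 8.97 at day 6, 9.53 and 9.52 in the *siOct4*-labelled libraries at day 3, and 8.31 and 8.66 at day 6. The groups lay apart in the same order as for *Itga5*, over a span of 1.22 log2 units against 2.68 for *Itga5*. *Itgb1* fell 2.06-fold in the *siOct4*-labelled libraries (adjusted p = 0.000131), and in *siNcor1* the difference of −0.35 ± 0.15 (SE) did not pass (adjusted p = 0.0852). At day 6 the knockdowns differed by −0.42 ± 0.15, just short of the threshold (adjusted p = 0.0506). It passed in 6 of 12 other settings (adjusted p = 0.0275 to 0.0496), the replicate number as a block among them (adjusted p = 0.0384), and in 1 of the 8 fits with a library left out, with an adjusted p of up to 0.284 in the others.

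**Figure D2:**
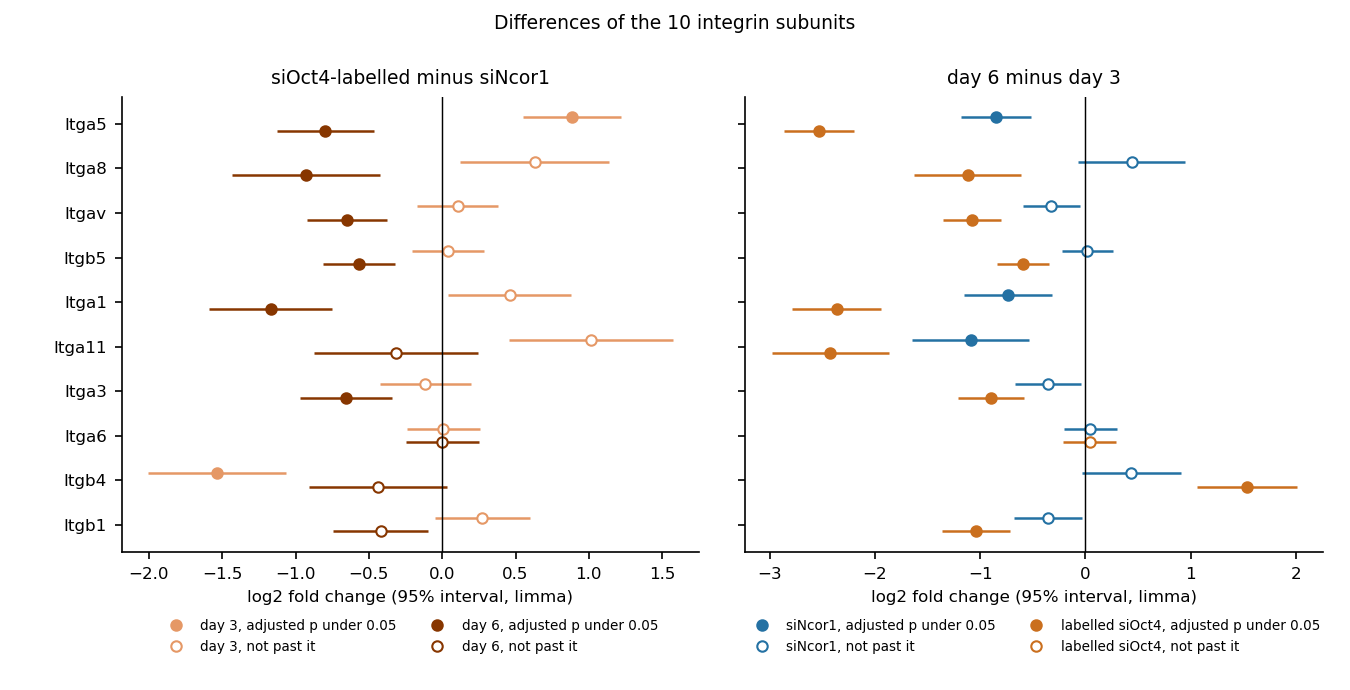
Log2 fold change of each subunit with its 95% interval from limma (horizontal axes), for the *siOct4*-labelled libraries minus *siNcor1* on the left and for day 6 minus day 3 on the right; filled points have an adjusted p under 0.05. *Itga6* lies on 0 in all 4 comparisons, *Itgb4* is the only filled point to the right of 0 between the days (1.53), and the day 3 and day 6 differences of *Itga5* lie on opposite sides of 0 (0.88 and −0.80).

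Levels can be compared between subunits only per length, so CPM was divided by the length of the gene's exons in kb. On that scale *Itga5* was the highest alpha chain in every group, with 47.2 and 34.7 CPM per kb in *siNcor1* at day 3, 23.2 and 21.6 at day 6, 68.0 and 82.0 in the *siOct4*-labelled libraries at day 3, and 13.0 and 12.8 at day 6. *Itga6* held between 7.71 and 8.58 CPM per kb throughout, *Itga3* between 3.97 and 9.40 and *Itgav* between 9.50 and 22.4. The collagen-binding chains and *Itga8* did not exceed 3.12. Among the beta chains *Itgb1* was highest, between 77.5 and 181 CPM per kb, with *Itgb5* between 22.8 and 35.7 and *Itgb4* between 5.63 and 22.9.

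The mix of alpha chains therefore differed between the groups. *Itga5* made up 62.5% ± 1.82 (SD, n = 2) of the alpha-chain CPM per kb in the *siOct4*-labelled libraries at day 3 and 34.1% ± 1.12 at day 6, and 49.5% ± 3.27 and 39.2% ± 2.48 in *siNcor1*. *Itga6* made up 6.62% ± 0.519 in the *siOct4*-labelled libraries at day 3 and 21.6% ± 0.119 at day 6, and 9.68% ± 1.33 and 14.3% ± 0.938 in *siNcor1*. Its share thus differed between the days by more than the spread between replicates while its own level did not change detectably. The summed level of the 7 alpha chains was 111 and 129 CPM per kb in the *siOct4*-labelled libraries at day 3 and 37.2 and 38.2 at day 6, and 91.0 and 73.4 against 56.7 and 57.5 in *siNcor1*. These shares depend on the length used for each gene. With the longest coding transcript in place of all exons, *Itga6* held 31.0%, *Itgav* 28.6% and *Itga5* 26.4% at day 6 in the *siOct4*-labelled libraries. The order of *Itga6* and *Itga5* in that group thus turned. *Itgav* lay above *Itga5* in replicate 2 of that group (30.4% against 25.7%) and of *siNcor1* day 6 (31.5% against 30.1%), but in replicate 1 of neither.

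**Figure D3:**
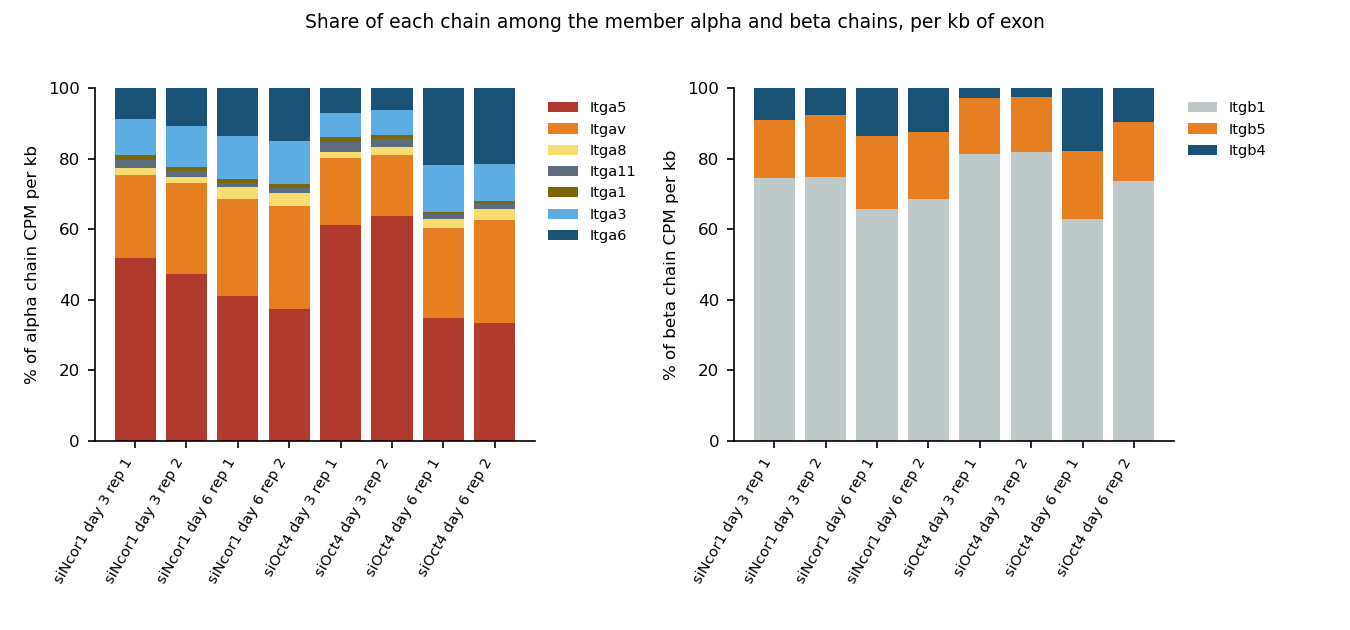
Share of each chain (vertical axes, %) in the summed CPM per kb of the 7 alpha chains on the left and the 3 beta chains on the right, 1 bar per library. The *Itga6* share is between 21.5% and 21.6% in the day 6 libraries labelled *siOct4* and between 6.26% and 6.99% in those of day 3, and *Itga5* holds 61.2% to 63.7% in the latter.

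The ratio of 2 subunits within a library does not move when the whole library is multiplied by a factor, although quantile normalization can move it. The log2 ratio of *Itga6* to *Itga5* was −2.57 and −2.15 in *siNcor1* at day 3 and −1.59 and −1.33 at day 6, and −3.13 and −3.35 in the *siOct4*-labelled libraries at day 3 and −0.69 and −0.63 at day 6. All 4 groups lay apart, and with the length of all exons the laminin-binding chain stayed below the fibronectin-binding chain in all 8 libraries, whereas with the longest coding transcript it lay above in both day 6 libraries labelled *siOct4*. *Itga3* to *Itga5* had the same low group, −3.13 and −3.21 in the *siOct4*-labelled libraries at day 3, but its day 6 groups overlapped, at −1.75 and −1.60 in *siNcor1* and −1.39 and −1.68 in the *siOct4*-labelled libraries. *Itga6* to *Itga11* had means of 2.37 ± 0.53 (SD, n = 2) at day 3 and 3.53 ± 0.12 at day 6 in *siNcor1*, and of 1.35 ± 0.039 and 3.86 ± 0.0078 in the *siOct4*-labelled libraries, without overlap between the days in either knockdown. Among beta chains, *Itgb4* to *Itgb5* stood at −2.59 and −2.61 in the *siOct4*-labelled libraries at day 3 and at −0.09 and −0.85 at day 6, and at −0.87, −1.17, −0.62 and −0.58 in *siNcor1*. Each of these 4 ratios had a higher mean at day 6 than at day 3 in each knockdown. *Itga3* was not set against *Itga11* or *Itgb5*, and not every pair of members moves this way. Between the days *Itga3* differed by −0.36 in *siNcor1* and −0.90 in the *siOct4*-labelled libraries on the log2 scale. *Itgb5* differed by 0.02 and −0.59, so *Itga3* fell relative to it, whereas *Itga11* differed by −1.09 and −2.42. Taken singly, *Itga6* showed no detectable difference and *Itga3* fell in the *siOct4*-labelled libraries along with *Itga5*. *Itgb4* was the one laminin-binding member that rose past the threshold, in the *siOct4*-labelled libraries. Its smaller rise in *siNcor1* passed only in some of the other fits.

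**Figure D4:**
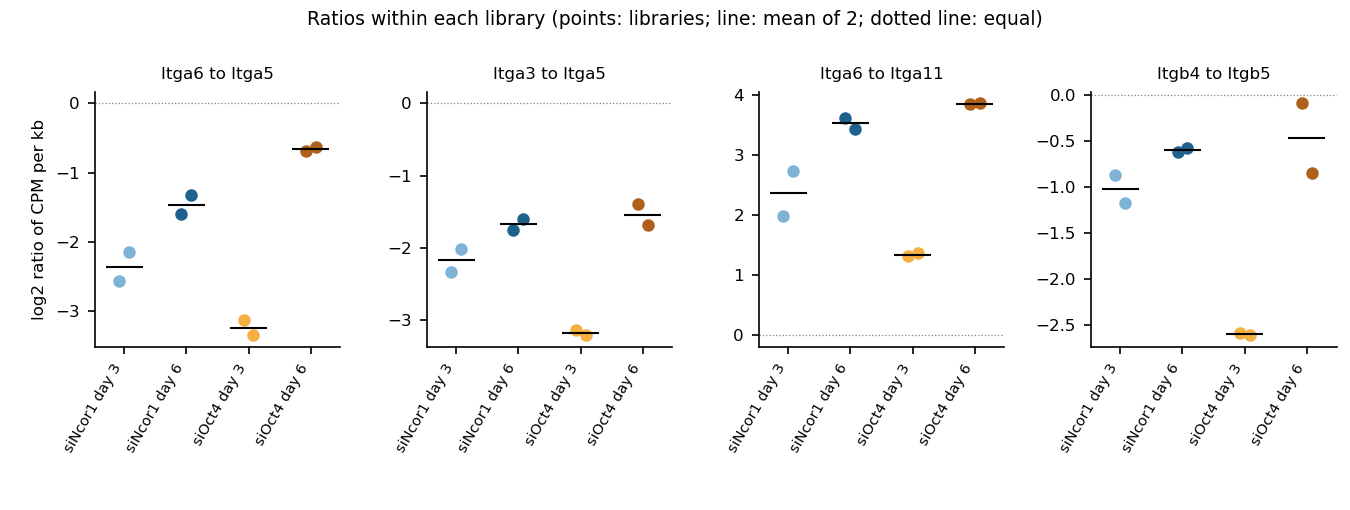
Log2 ratio of CPM per kb of 2 subunits within each library (vertical axes), with points for libraries, a line at the mean of each group and a dotted line at equal levels. The libraries labelled *siOct4* have the lowest ratio at day 3 in all 4 panels, and the 2 day 6 libraries of that label lie apart from each other for *Itgb4* to *Itgb5* (−0.09 and −0.85).

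These changes stood beside changes in the markers of the cells themselves, and their part in them was not tested. The summed level of 10 fibroblast markers was 6270 to 6401 CPM in *siNcor1* at day 3 and 4553 to 4926 at day 6, and 8807 to 10360 in the *siOct4*-labelled libraries at day 3 and 2506 to 2681 at day 6, which is the order of *Itga5*. Each of the 10 had more than 3 reads in every group. *Col1a1*, which made up most of that sum at day 3 but not at day 6, fell by 2.88 on the log2 scale in the *siOct4*-labelled libraries (adjusted p = 4.01e-07) and by 1.15 in *siNcor1* (adjusted p = 0.000658). Counted singly, 2 of the fibroblast markers rose and 5 fell in the *siOct4*-labelled libraries, and 6 rose and 2 fell in *siNcor1*. Over all genes tested, 22.2% rose and 30.5% fell in the *siOct4*-labelled libraries, and in *siNcor1* 34.8% were called and 20.9% fell. The 6 early epithelial markers summed to 53.8 to 55.4 CPM in *siNcor1* at day 3 and 656 to 695 at day 6, and to 15.4 to 17.5 in the *siOct4*-labelled libraries at day 3, where *Cldn4* and *Crb3* had 3 reads or fewer, and 282 to 312 at day 6. *Cdh1*, which encodes E-cadherin, was lower in the *siOct4*-labelled libraries at day 3, as *Itgb4* was (log2 fold change −2.02 ± 0.13 (SE), adjusted p = 6.11e-05). In bulk RNA, fewer cells of a type and less RNA per cell cannot be told apart.

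Most markers of other cells that could carry these integrins were low, with *Tek* and *Des* as exceptions. Summed over their lists, 6 keratinocyte markers held 2.37 to 10.5 CPM, with *Krt5*, *Krt14* and *Dsg3* at 3 reads or fewer in both day 3 groups. The highest keratinocyte sum, 8.76 to 10.5 CPM, was in *siNcor1* at day 6, where *Itgb4* was highest too. The macrophage markers held 7.31 to 15.4 CPM over 6 of 8 markers, and the endothelial markers 16.4 to 44.4 CPM over 5 of 6, with *Emcn* at 0 reads in both day 6 groups. Nearly all of the endothelial sum was *Tek*, with means of 41.2 and 17.7 CPM in *siNcor1* at day 3 and day 6 and of 40.0 and 16.0 in the *siOct4*-labelled libraries, while *Pecam1* and *Cdh5* had 9 reads or fewer in every library. Of 5 myoblast markers only *Des* was in the table, at 13.9 to 85.2 CPM. *Tek* and *Des* were lower at day 6 than at day 3 in both knockdowns, as *Itga1* and *Itga11* were, and their part in the falls of those subunits was not tested.

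The other integrin genes passed the threshold in shares not far from those of all genes or below them. Of 16 further subunits, 14 were in the table and 10 were tested. At day 6, 2 of the 10 were called between the knockdowns (30.7% of all genes), and between the days 4 were called in *siNcor1* (34.8%) and 3 in the *siOct4*-labelled libraries (52.7%). None differed between the knockdowns at day 3 in limma (0 at an unadjusted p under 0.05, and 0 with voom). At day 6 *Itga9*, an alpha chain for tenascin, was higher in the *siOct4*-labelled libraries (log2 fold change 0.63 ± 0.16 (SE), adjusted p = 0.0125). *Itgb8*, a beta chain that pairs with Itgav on latent TGF-beta, was lower there (−1.04 ± 0.26, adjusted p = 0.0112). *Itgb8* stood at 2.72 and 3.18 log2-cpm in *siNcor1* at day 6 and at 1.58 and 2.24 in the *siOct4*-labelled libraries, from 27 to 106 reads. Each of these calls was lost without 1 library, *Itga9* without either day 6 library of *siNcor1* and *Itgb8* without *siNcor1* day 6 replicate 2 or *siOct4* day 6 replicate 1.

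Over time, *Itga4*, the alpha chain that binds the vascular adhesion molecule VCAM1, fell in both knockdowns, by 1.00 on the log2 scale in the *siOct4*-labelled libraries (adjusted p = 0.00318) and by 0.79 in *siNcor1* (adjusted p = 0.0193). *Itgb8* fell by 1.31 in the *siOct4*-labelled libraries (adjusted p = 0.00126), where *Itgb3*, the beta chain of the other vitronectin receptor, rose by 0.66 (adjusted p = 0.0062). In *siNcor1* the laminin-binding *Itga7* rose by 0.59 (adjusted p = 0.0493), the leukocyte chain *Itgb7* rose by 1.35 from 16 to 29 reads to 37 to 48 (adjusted p = 0.00949), and *Itga9* fell by 0.45 (adjusted p = 0.0469). The calls of *Itga7* and *Itga9* lie at the edge of the threshold and were lost in a fit without the trend and without any one library of *siNcor1*, and that of *Itga4* in *siNcor1* was also lost without any one of these. That of *Itgb7* was lost without *siNcor1* day 3 replicate 2 or day 6 replicate 1, and that of *Itgb3* without *siOct4* day 3 replicate 1.

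Most matrix ligands of integrins were lower in the *siOct4*-labelled libraries at day 6. Of 25 matrix ligands listed, 22 were tested, and at day 6 17 were lower in the *siOct4*-labelled libraries and none higher in limma (0 higher at an unadjusted p under 0.05, and 0 with voom), where 18.6% of all genes tested were lower, with a median of −0.81 on the log2 scale. Among the lower ligands were *Thbs1*, the thrombospondin that binds cells and TGF-beta (−1.41 ± 0.20 (SE), adjusted p = 0.000724), and *Tnc*, tenascin-C (−1.23 ± 0.16, adjusted p = 0.000493). Over time 18 ligands fell and 1 rose in the *siOct4*-labelled libraries, and 9 fell and 4 rose in *siNcor1*, with medians of −1.29 and −0.26, where 30.5% and 20.9% of all genes were lower. The change of the knockdown difference was called downwards for 16 of 22, against 12.9% of all genes. At day 3 only *Tnc* passed, higher in the *siOct4*-labelled libraries (0.77, adjusted p = 0.0457). No ligand passed at day 3 without any one library of *siNcor1* or any day 3 library labelled *siOct4*, 5 did without either day 6 library labelled *siOct4*, and voom called 4, all higher.

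The RNA of many genes for proteins that tie integrins to actin and to kinase signals fell. Of 31 adaptors and kinases listed, 30 were tested, and 17 were lower in the *siOct4*-labelled libraries at day 6, where 18.6% of all genes tested were lower, with a median of −0.44. They were led by *Tgfb1i1*, the focal adhesion protein Hic-5 (−1.12 ± 0.16 (SE), adjusted p = 0.000741), *Vcl*, vinculin, which links talin to actin (−1.06 ± 0.15, adjusted p = 0.000652), and *Parva*, alpha-parvin, a partner of the integrin-linked kinase (−1.06 ± 0.12, adjusted p = 0.000366). The count was 10 without *siNcor1* day 6 replicate 1, 8 without *siNcor1* day 6 replicate 2 and 11 in a fit of only the groups compared. Between the days 24 fell and 1 rose in the *siOct4*-labelled libraries, and 15 fell and 1 rose in *siNcor1*, where 9 fell without *siNcor1* day 3 replicate 1, beside 30.5% and 20.9% of all genes lower. At day 3 none differed between the knockdowns in limma, where 8 had an unadjusted p under 0.05, all higher in the *siOct4*-labelled libraries, and voom called 0. Of all 13866 genes tested, 1460 had an unadjusted p under 0.05 at day 3, and 1.07% passed the threshold.

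Partners of Itga6 and Itgb4 in the hemidesmosome changed in both directions. Of 6 listed, 4 were tested, and 2 of them were lower in the *siOct4*-labelled libraries at day 6, where 18.6% of all genes were. At day 6 *Plec*, the plectin that ties Itgb4 to keratins and also serves other filaments, was lower in the *siOct4*-labelled libraries (−0.91 ± 0.17 (SE), adjusted p = 0.00273). *Krt14*, a keratin of basal epithelia, was lower there as well (−1.32 ± 0.45, adjusted p = 0.0443), from 35 and 44 reads against 14 and 12, and that call was lost without any one of the 4 day 6 libraries. From day 3 to day 6 in the *siOct4*-labelled libraries, where *Itgb4* rose, 1 partner rose and 2 fell, and in *siNcor1* 2 rose and none fell in limma (0 lower at an unadjusted p under 0.05, and 0 with voom), beside 52.7% and 34.8% of all genes called. These counts moved by 1 without single libraries: 1 rose in *siNcor1* without *siNcor1* day 3 replicate 2 or either day 6 library of *siNcor1*, and 1 fell in the *siOct4*-labelled libraries without *siOct4* day 3 replicate 2.

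Genes with profiles most like those of 3 members were sought over the 8 libraries by the root mean square difference of log2-cpm, each gene centred on its mean. For *Itga5* they were *Fbln2* (0.11 log2 units), *Mical2* (0.15) and *Galnt18* (0.15), beside a median of 0.95 over all genes tested. For *Itga11* they were *Myocd* (0.13), *Fbln2* (0.19) and *Stbd1* (0.19), beside a median of 0.97, so that *Fbln2* was among the nearest of both. For *Itgb4* the nearest were farther away, *Nfatc2* (0.19), *Prob1* (0.20) and *Scara5* (0.26), beside a median of 0.86.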

How the data were processed

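RNA-seq was measured in 2 biological replicates of each of 4 groups, with ribosomal RNA removed from inputs of 200 ng. Per the submitters' processing notes and the study's methods, reads were aligned with STAR 2.5.2b to mm10 (GRCm38), and the authors deposited log2-cpm values computed with edgeR 3.20.9 for 18990 genes. The counting tool and its strand setting are not given in the sources used here. The deposited log2 values are whole reads on a log scale: after removal of a constant, 100% of values were whole within 0.1 read, and these reads give each library its depth. A value of −2.87, the lowest, is 0 reads. No pair of replicates was alike to within sampling noise (chi-square over its degrees of freedom 9.48 to 21.3).

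The 13866 genes that averaged 1 CPM or more were tested together over all 4 groups with limma 3.58.1 in R 4.3.3 (lmFit, and eBayes with a trend), two-sided, with Benjamini-Hochberg adjustment over all genes tested and a threshold of 0.05, in 5 comparisons. With 2 libraries a group, each p-value sets a difference against the spread between replicate libraries, estimated jointly over all 4 groups. A call in one knockdown thus also depends on the libraries of the other. Of the genes, 18969 matched GENCODE M21, which gave coordinates and exon lengths. Promoter sequences came from RefSeq (GRCm38.p6). The 10 members and the gene lists were chosen with earlier results of these data known. The genes named were the members, other integrin subunits called in any comparison, and, of each other list, up to 3 called genes in each direction with the largest day 6 knockdown difference and no overlap of groups, with *Cdh1* and *Col1a1* among the markers, the siRNA targets, *Gm26917*, and the 3 nearest profiles of *Itga5*, *Itga11* and *Itgb4*. *Tnc* at day 3 was named after its value was seen. A result that this rule would name is not reported here. The alternatives were a fit without the trend, 4 other scalings, a filter at 10 CPM or none, adding 0.1 or 1 CPM before the log, the replicate block, voom on the recovered reads, separate fits for each pair of groups and leaving out each library. Keeping the deposited constant in ratios and taking lengths from the longest coding transcript were added after the data were seen.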

Additional observations from a re-analysis of the deposited data

Results flagged for a closer look

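The knockdown difference changed from day 3 to day 6 past the threshold, in the limma test of that change with Benjamini-Hochberg adjustment, for 8 of the 10 integrin subunits and for 2 of the 10 other subunits tested, where 20.7% of all genes tested were called. The share of the other subunits is thus close to that of all genes. The 10 members were chosen with earlier results of these data known, so their higher share is no test of integrins as a set. The change is the difference at day 6 minus that at day 3, each taken as the *siOct4*-labelled libraries minus *siNcor1*, on the log2 scale.

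Among the receptors for fibronectin and other RGD proteins it was −1.68 for *Itga5* (adjusted p = 0.000791), −1.56 for *Itga8* (adjusted p = 0.00764), −0.75 for *Itgav* (adjusted p = 0.0129) and −0.61 for *Itgb5* (adjusted p = 0.0204). The collagen receptors had −1.63 for *Itga1* (adjusted p = 0.00236) and −1.33 for *Itga11* (adjusted p = 0.0247), and the shared beta chain *Itgb1* had −0.69 (adjusted p = 0.0373). *Itgb4*, of hemidesmosomes, was the one member with a positive value, 1.10 (adjusted p = 0.027). Outside the members, *Itgb8* had −1.21 (adjusted p = 0.0368) and *Itga7* −0.92 (adjusted p = 0.0483). In these 10 genes every value kept its sign when any library was left out. The calls of *Itga1* and *Itga5* were kept in all 8 of those fits, that of *Itga8* in 7, *Itgav* in 5, *Itga11* in 4, *Itgb4*, *Itgb5* and *Itgb8* in 3 each, and *Itgb1* and *Itga7* in 1 each. That of *Itgb1* was also lost without the trend (adjusted p = 0.0858), after quantile normalization (0.0517) and without a filter on low values (0.0529). Those of *Itgb4* (0.0943), *Itgb5* (0.0588) and *Itgb8* (0.069) were lost without the trend too, and that of *Itgb8* without the filter (0.0521). The call of *Itga7* was kept in 4 of 10 other settings. The fibroblast marker sum, most of it *Col1a1* at day 3, moved in the same order as *Itga5*. Counted singly, 6 of the 10 fibroblast markers rose and 2 fell between the days in *siNcor1*, where 34.8% of all genes tested were called and 20.9% fell. The part of these markers in the values above was not tested.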

How the results depend on the processing

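With 2 libraries a group, calls near the threshold turned on single libraries, while the fall in the *siOct4*-labelled libraries did not: its 9 calls were kept in all 8 fits without 1 library, and in every other setting, except that *Itga11* falls below a mean of 10 CPM and was then not tested. Without 1 library, the number of members called was 0 to 3 between the knockdowns at day 3, 4 to 7 at day 6, 1 to 7 between the days in *siNcor1*, 9 to 9 in the *siOct4*-labelled libraries and 3 to 8 for the change of the knockdown difference. A fit without the trend called 0 members at day 3 (2 in the fit reported) and 5 for the change of the difference (8). A fit of only the groups compared called 7 in *siNcor1* (3).

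The replicate numbers were not taken to pair the libraries, since the labels name no shared batch and the deviations of same-numbered libraries correlated over 0.1 in only 3 of 6 pairs of groups (range −0.04 to 0.281). A weak pairing remains possible. With the replicate block the members called were 2, 7, 3, 9 and 8 in these comparisons, with *Itgb1* added at day 6, and over all genes 222 in place of 148 were called at day 3. Over all genes a fit without the trend called 43 at day 3 and 1925 in place of 2867 for the change of the difference. A filter at 10 CPM, which tests fewer genes, called 81 at day 3. Without 1 library the calls over all genes ranged from 3 to 375 at day 3, from 1398 to 4669 at day 6 (4251 with all), from 2360 to 5954 between the days in *siNcor1* (4819) and from 1009 to 3667 for the change of the difference. Leaving *Gm26917* out of the totals moved the median of all genes between the days in the *siOct4*-labelled libraries from −0.08 to 0.06, and that of the members to −0.92.

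Sign changes touched only differences near 0 that were not called. At day 3 *Itga6* gave −0.0127 after quantile normalization, −0.0264 with plain library totals and −0.0354 without *Gm26917*, where *Itgb5* gave −0.0024. With plain totals *Itga6* gave −0.0868 at day 6 and −0.0195 between the days in the *siOct4*-labelled libraries. Its change of the difference was 0.0235 with centring on the medians, 0.0587 after quantile normalization and 0.0539 without *Gm26917*. Without 1 library, *Itga6* ranged from −0.0193 to 0.032 at day 3, from −0.0767 to 0.0774 at day 6, from −0.0308 to 0.123 between the days in *siNcor1* and from −0.083 to 0.0711 for the change of the difference. *Itgb5* ranged from −0.0325 to 0.111 at day 3 and from −0.0542 to 0.0894 between the days in *siNcor1*.

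Of the log2 ratios, *Itgb4* to *Itgb5* in the *siOct4*-labelled libraries at day 3 (−2.60) was −2.54 after quantile normalization and −2.58 with a pseudocount of 1 CPM. *Itga6* to *Itga11* at day 6 in those libraries (3.86) was 3.80 with the deposited constant, 4.03 after quantile normalization, and 3.81 and 3.45 with pseudocounts of 0.1 and 1. At day 3 there (1.35) it was 1.23 after quantile normalization and 1.28 with a pseudocount of 1, and in *siNcor1* at day 6 (3.53) it was 3.72 and 3.197. The causes were not tested. Depth limited *Itga11* most, with 27 reads in its lowest library.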
